A study of Homo sapiens with 8 samples.

Results

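The lysyl oxidase family was followed through 8 RNA libraries of human intestinal and colorectal carcinoma (CRC) cell lines. Its 5 genes, LOX, LOXL1, LOXL2, LOXL3 and LOXL4, were taken by symbol from a table of 54261 genes, and all 5 were found. Lysyl oxidases are secreted copper enzymes that oxidise lysine residues of collagen and elastin, and the aldehydes formed join neighbouring chains into cross-links that make the extracellular matrix stiff. LOX and LOXL1 are made with a propeptide, whereas LOXL2, LOXL3 and LOXL4 carry scavenger receptor cysteine-rich domains in its place. LOX and LOXL2 are known as genes that low oxygen can induce through hypoxia-inducible factors, and both have been studied for their part in tumor invasion.

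Total RNA was sequenced after removal of ribosomal RNA, with 1 library for each line and treatment. The untreated libraries were HIEC6 and NCM460, both labelled as normal intestinal epithelial lines, and the CRC lines DLD1, HCT116 and HCT8. The other 3 libraries came from DLD1, HCT116 and HCT8 labelled as treated with hypoxia, for which neither the oxygen level nor the duration is given. According to the labels, all lines were grown in DMEM with fetal bovine serum and shared 1 passage number. The replicates of a group were different lines, so p-values measure the spread between lines, and HIEC6 had no replicate. Where the line was fitted as a block, which takes out differences between lines, p-values measure the spread of the hypoxia difference between lines.

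Total counts lay between 45519306 and 57374239, so that 3 counts, the floor used here, stood for 0.0523 to 0.0659 CPM (counts per 1e6 counts of the library). Intervals given below are exact 95% counting intervals and cover counting error only. Ratios given as at least a value set a count of 0 to this floor, and they leave out the counting error of the other library. The library labelled NCM460 correlated across genes at r = 0.994 with untreated HCT116 and at 0.924 with HIEC6 in log2(CPM + 1), and it was kept out of the main comparison. HIEC6 went against its label in several defining genes. EPCAM had 10 counts there and 10969 to 33357 in the other libraries, and CDH1 (E-cadherin) had 172 against 6602 to 66073, whereas KRT8 and KRT18 were abundant (243272 and 211257 counts). KRT20, CDX1 and LGALS4 were at 0 in HIEC6, as they were in the library labelled NCM460 and in HCT116 under hypoxia. Over the 10 fibroblast and mesenchyme markers the summed level was 1290 CPM in HIEC6 and 6.39 to 75.3 CPM elsewhere, and VIM (vimentin) alone gave 1220 CPM of it. COL1A1 (46.0 CPM), PDGFRB (8.6 CPM) and TWIST1 (5.31 CPM) were also highest in HIEC6, PDGFRB closely followed by HCT8 under hypoxia (8.46 CPM). COL3A1 and LUM were not highest there, and COL1A2, DCN, THY1 and FAP were low, with 26, 4, 2 and 1 counts. In RNA from whole cultures, fewer cells that express a gene and less RNA in each cell cannot be told apart.

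All 5 genes are protein coding. In GRCh37, LOX lies on the minus strand of chromosome 5 from 121398890 to 121414108 and LOXL1 on chromosome 15 (plus strand) from 74218330 to 74244478. LOXL2 lies on the minus strand of chromosome 8 from 23154410 to 23282841, LOXL3 on the minus strand of chromosome 2 from 74759385 to 74782817 and LOXL4 on the minus strand of chromosome 10 from 100007447 to 100027951. Their canonical transcripts have 7 exons (LOX, LOXL1), 14 exons (LOXL2, LOXL3) and 15 exons (LOXL4). Some exonic bases are shared with neighbours, and without a stated strand setting the reads there are uncertain. HTRA2, on the opposite strand, shares 25.4% of the LOXL3 transcript and the antisense gene LOXL1-AS1 shares 9.89% of LOXL1, while the share with any other neighbouring gene was at most 4.78%.

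The leading member differed between lines. LOXL2 led in HIEC6, HCT116 and the library labelled NCM460, LOXL3 in DLD1 and LOXL4 in HCT8, also when levels were divided by transcript length, and no leader changed under hypoxia. LOXL2 held 89.0% of the family's counts in HIEC6, 74.2% in the library labelled NCM460, 67.0% in untreated HCT116 and 97.0% in HCT116 under hypoxia. In DLD1, LOXL3 held 83.4% of the family's counts untreated and 55.0% under hypoxia. In HCT8, LOXL4 held 73.5% untreated and 85.2% under hypoxia. The summed family level was 205 CPM in HIEC6, and in the CRC lines it was 12.7 CPM in DLD1, 62.5 in HCT116 and 35.5 in HCT8 untreated, against 14.7, 541 and 41.2 CPM under hypoxia.

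**Figure D1:**
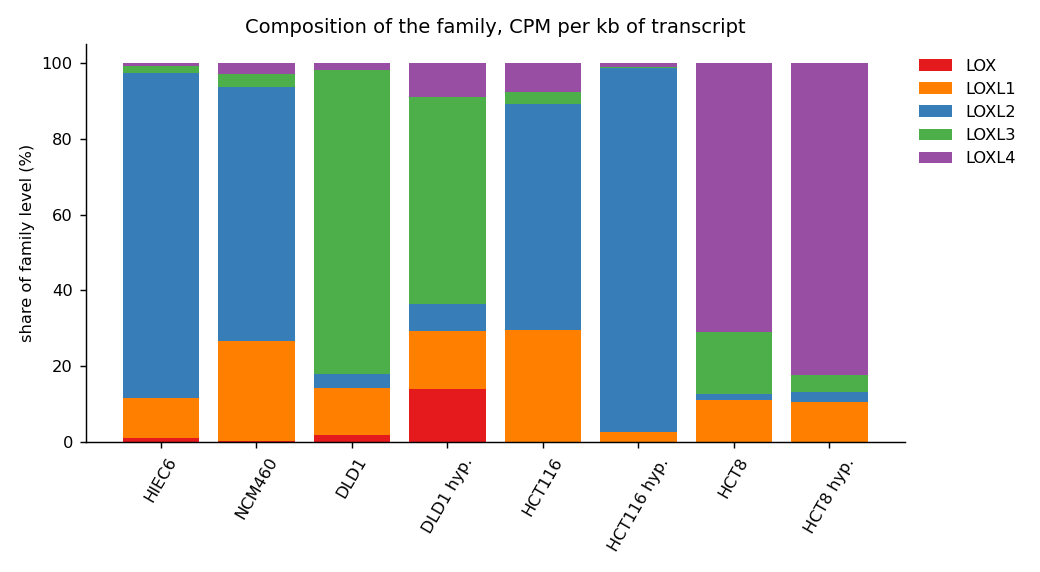
Bars show, for each of the 8 libraries, the share in percent of each gene in the summed family level, in CPM per kb of canonical transcript. LOXL2 fills most of the bar in HIEC6, NCM460 and both HCT116 libraries, LOXL3 in both DLD1 libraries and LOXL4 in both HCT8 libraries.

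On the scale of CPM per kb, LOXL2 in HIEC6 had a level of 49.0, ahead of LOXL1 with 5.98, LOXL3 with 0.97, LOX with 0.622 and LOXL4 with 0.471. The levels of LOX and LOXL4 there had overlapping counting intervals. In untreated HCT116 the order of levels in CPM per kb was LOXL2 (11.3), LOXL1 (5.6), LOXL4 (1.47), LOXL3 (0.597) and LOX (0). In untreated DLD1 LOXL3 (2.86) stood above LOXL1 (0.441), and LOXL2 (0.131), LOX (0.0692) and LOXL4 (0.0651) followed with overlapping intervals between neighbours. In untreated HCT8 the order was LOXL4 (7.24), LOXL3 (1.66), LOXL1 (1.13), LOXL2 (0.174) and LOX (0). Under hypoxia LOX moved from the fourth to the third place in DLD1 with a level of 0.56 CPM per kb, which overlapped that of LOXL1 (0.609).

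**Figure D2:**
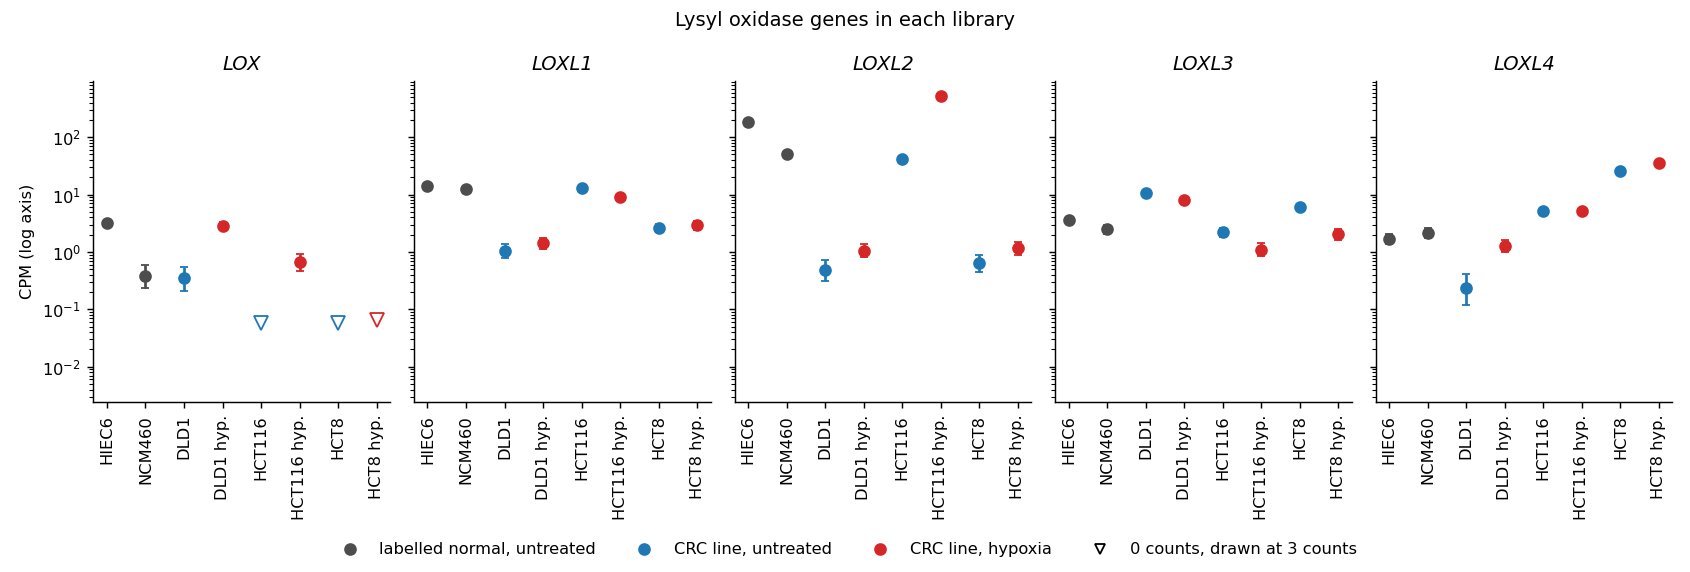
Each panel gives 1 gene, with the level in CPM on a log axis for each of the 8 libraries; bars are exact 95% counting intervals, and open triangles mark 0 counts, drawn at 3 counts. LOXL2 spans the widest range, from 0.488 CPM in DLD1 to 525 CPM in HCT116 under hypoxia.

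The first comparison set HIEC6 against the untreated CRC lines. LOX, LOXL1 and LOXL2 were higher in HIEC6 than in each of DLD1, HCT116 and HCT8, and LOXL3 and LOXL4 lay within the range of the CRC lines. No member passed the test. Among all 18994 genes tested, 22.7% were higher in HIEC6 than in all 3 CRC lines, against 3 of the 5 members.

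LOXL2, which is known for cross-linking type IV collagen of basement membranes, had 10347 counts in HIEC6 (182 CPM), 25 in DLD1 (0.488 CPM), 2187 in HCT116 (41.9 CPM) and 34 in HCT8 (0.646 CPM). HIEC6 was thus higher than every CRC line, and HCT116 stood apart from the other two. The ratio of HIEC6 was 374 to DLD1 (253 to 578), 4.36 to HCT116 (4.16 to 4.57) and 283 to HCT8 (202 to 408). The mean of the CRC lines was 14.3 ± 23.8 CPM (SD, n = 3), and the log2 fold change was 3.85 (SE 2.48, adjusted p = 0.481 from edgeR), which did not pass the test. Without HCT116 it was 8.64 (adjusted p = 0.0547 from edgeR).

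LOX, the founding member, had 179 counts in HIEC6 (3.16 CPM), 18 in DLD1 (0.351 CPM) and 0 in both HCT116 and HCT8. HIEC6 was 8.98 times DLD1 (5.52 to 15.5), at least 55.0-fold higher than HCT116 and at least 55.4-fold higher than HCT8, taking 3 counts per library as the floor. The fitted log2 fold change was 4.97 (SE 2.37). Among the CRC lines it rested on the counts of DLD1 alone, and its dependence on the prior count was not tested. LOXL1, needed for the renewal of elastic fibres, had 796 counts in HIEC6 (14.0 CPM), 53 in DLD1 (1.03 CPM), 686 in HCT116 (13.1 CPM) and 139 in HCT8 (2.64 CPM). HIEC6 was 1.07 times HCT116 in LOXL1, with an interval (0.964 to 1.19) that includes equality, and the log2 fold change against the 3 lines was 1.54 (SE 1.49, adjusted p = 0.629 from edgeR). Without HCT116 it was 3.27 (SE 0.818, adjusted p = 0.163 from edgeR).

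LOXL3, which acts on collagen during skeletal and palate development, had 203 counts in HIEC6 (3.58 CPM), 541 in DLD1 (10.6 CPM), 115 in HCT116 (2.2 CPM) and 322 in HCT8 (6.12 CPM). Its log2 fold change was -0.54 (SE 1.07, adjusted p = 0.819 from edgeR), and it turned to 0.11 without DLD1. LOXL4 had 96 counts in HIEC6 (1.69 CPM), 12 in DLD1 (0.234 CPM), 276 in HCT116 (5.28 CPM) and 1372 in HCT8 (26.1 CPM). HIEC6 lay between DLD1 and HCT116, and the log2 fold change was -2.30 (SE 2.56, adjusted p = 0.671 from edgeR). Without HCT8 it was -0.52 (adjusted p = 0.935 from edgeR). Over all genes, edgeR called 0 of 18994 (0%), with 2994 at an unadjusted p under 0.05, whereas DESeq2 called 4206 and limma-trend 85, none of them a member. The lone HIEC6 library was assumed in this test to vary like the CRC lines.

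The library labelled NCM460 resembled untreated HCT116 in LOXL1, LOXL2 and LOXL3 and differed from it in LOX and LOXL4. It had 618 counts of LOXL1, 2486 of LOXL2 and 123 of LOXL3, and the ratios to HCT116 were 0.957 (0.857 to 1.07), 1.21 (1.14 to 1.28) and 1.14 (0.874 to 1.48). LOXL4 had 105 counts against 276, a ratio of 0.404 (0.32 to 0.508), and LOX had 19 counts against 0, at least 6.73-fold higher. With both labelled normal lines against the CRC lines, no member passed either (adjusted p = 0.999 from edgeR for all 5).

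Other genes that make and carry the collagen substrate were described from fixed lists, and none of them was called for HIEC6. Of the substrates, 6 of 7 tested had a higher fitted value in HIEC6, with a median log2 fold change of 2.79 against -0.19 over all genes. COL5A1, a fibril-initiating collagen chain, had 41022 counts in HIEC6 and 20 to 76 in the untreated CRC lines (log2 fold change 10.20, SE 0.87, adjusted p = 0.126 from edgeR). COL4A1 and COL4A2, the basement membrane chains, had log2 fold changes of 4.63 and 4.68 (adjusted p = 0.343 and 0.351 from edgeR), and elastin (ELN) had 24 counts in HIEC6 and 0 or 1 in the untreated CRC lines. COL1A2 pointed the other way, with 26 counts in HIEC6 and 40 to 66 in the untreated CRC lines. COL3A1 (log2 fold change 0.14) and COL5A2 (0.44) lay within the range of the untreated CRC lines in CPM. Of the matrix partners, 5 of 6 tested were higher, led by the microfibril protein FBN1 with 54905 counts in HIEC6 and 62 to 178 in the untreated CRC lines (log2 fold change 9.09, SE 0.75, adjusted p = 0.121 from edgeR). FBN2, with 54736 counts in HIEC6 and 5 to 9 in those lines, did not reach 10 counts in 2 libraries and was not tested. Of the tested partners with a higher fitted value, EFEMP2 and EMILIN1 lay within the range of the untreated CRC lines in CPM.

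The second comparison asked how the family differed between hypoxia and no treatment in the 3 CRC lines. LOXL2 was higher under hypoxia in all 3 lines and LOXL3 lower in all 3, LOX was higher in DLD1 and HCT116 and at 0 in both HCT8 libraries, and LOXL4 was higher in DLD1 and HCT8. No member passed the test, with the line as a block or without it. Of all 21045 genes tested, 16.2% were higher and 26.4% lower under hypoxia in all 3 pairs, so that 1 of 5 members in each direction was not set apart from the background.

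**Figure D3:**
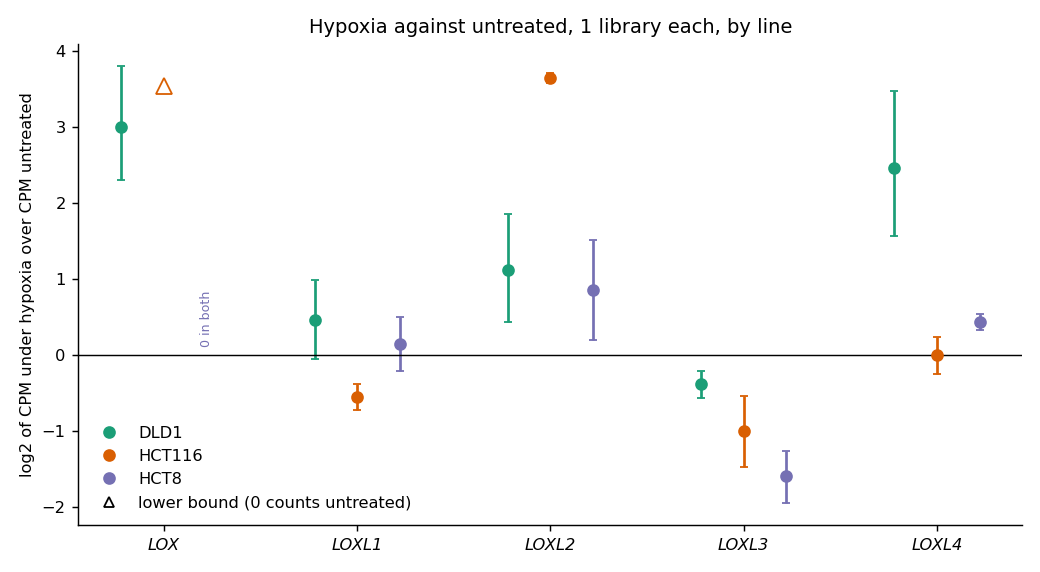
Points give the log2 ratio of CPM under hypoxia to CPM untreated for each gene and line, 1 library against 1, with 95% counting intervals. The open triangle, labelled a lower bound, sets the 0 counts of LOX in untreated HCT116 to 3 counts and leaves out counting error. LOXL2 lies above 0 and LOXL3 below 0 in all 3 lines, and LOXL2 in HCT116 reaches 3.65.

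LOXL2 went from 2187 to 29082 counts in HCT116 (41.9 to 525 CPM), from 25 to 61 in DLD1 (0.488 to 1.06 CPM) and from 34 to 53 in HCT8 (0.646 to 1.16 CPM). HCT116 was already high untreated and had by far the larger difference in CPM. The ratio was 12.5 in HCT116 (12.0 to 13.1), 2.18 in DLD1 (1.35 to 3.62) and 1.80 in HCT8 (1.15 to 2.86), all with intervals above 1. In HCT116 it ranked 121 from the top among 19846 genes, and its level under hypoxia was above that of HIEC6, which had 0.348 times as much (0.34 to 0.355). The groups overlapped in level, at 14.3 ± 23.8 CPM untreated and 176 ± 302 CPM under hypoxia (SD, n = 3 lines each). The log2 fold change was 3.98 (SE 2.92, adjusted p = 1 from edgeR) without the block and 2.30 (SE 0.62, unadjusted p = 0.0058, adjusted p = 0.119 from edgeR) with it. Without the HCT116 hypoxia library, the value without the block turned to -3.81. That fit set DLD1 and HCT8 under hypoxia against all 3 untreated lines, HCT116 among them, so it mixed line and treatment. With both HCT116 libraries left out, the value with the block was 0.99 (unadjusted p = 0.115, adjusted p = 0.388 from edgeR).

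LOX went from 18 to 163 counts in DLD1 (0.351 to 2.84 CPM), from 0 to 37 in HCT116 (0 to 0.668 CPM) and was at 0 in both HCT8 libraries, where the floor of 3 counts stood for 0.057 CPM untreated and 0.0659 CPM under hypoxia. The ratio was 8.08 in DLD1 (4.96 to 14.0), and in HCT116 hypoxia was at least 11.6-fold higher. In HCT8 no difference was detectable at this depth. The log2 fold change was 3.41 (SE 2.41, adjusted p = 1 from edgeR) without the block and 3.97 (SE 1.06, unadjusted p = 0.00685, adjusted p = 0.127 from edgeR) with it. The dependence of these values on the prior count was not tested. Without the block and with unmatched lines, the log2 fold change was 9.03 with untreated DLD1 left out and 1.90 with DLD1 under hypoxia left out. The former depends on the prior count, as the remaining untreated libraries were at 0. DESeq2 with the block gave LOX an unadjusted p of 0.319 and no adjusted p. The level under hypoxia in DLD1 was close to the 3.16 CPM of HIEC6.

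LOX is set here beside matrix genes and the run labels. Among the 8 libraries, the labels give a second run label to DLD1 under hypoxia, HCT116 under hypoxia and NCM460, and no hypoxia library shares a run label with an untreated CRC library, so that run and treatment cannot be told apart. Under hypoxia, all 10 fibroblast and mesenchyme markers were higher in CPM in DLD1, 9 of 10 in HCT116 and 3 of 10 in HCT8. In the library labelled NCM460, 9 of 10 were higher than in untreated HCT116. Over all genes the median log2 ratio was 0.0004 in the DLD1 pair, -0.35 in HCT116 and 0.014 in HCT8. Some marker differences were of few counts. In DLD1, TWIST1 had 0 counts untreated and 3 under hypoxia, and FAP 10 and 13. The library labelled NCM460 had 9 counts of DCN against 8 in untreated HCT116, and 8 of FAP against 0. The summed level of these markers was 6.39 CPM untreated and 38.2 under hypoxia in DLD1, 25.0 and 75.3 in HCT116, and 15.1 and 24.6 in HCT8. THY1, DCN and TWIST1 were at 0 in untreated DLD1, and THY1, DCN, FAP and TWIST1 in HCT8 under hypoxia.

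POSTN (periostin), a matrix protein of fibroblasts, had 241 counts in DLD1 under hypoxia, 320 in HCT116 under hypoxia and 167 in the library labelled NCM460, against 0 to 6 in the other 5 libraries. COL1A2 had 658, 724 and 393 counts in those 3 libraries and 21 to 66 in the others. LOX had 0.116 counts for each count of POSTN in HCT116 under hypoxia and 0.114 in the library labelled NCM460, which was not under hypoxia, against 0.676 in DLD1 under hypoxia. HIEC6 had 179 counts of LOX and untreated DLD1 18, each with 1 count of POSTN and without the second run label. The LOX level of the library labelled NCM460 (0.386 CPM, 0.233 to 0.603) overlapped that of untreated DLD1 (0.351 CPM, 0.208 to 0.555). The ratio of LOX to COL1A2 was 0.0511 in HCT116 under hypoxia, 0.0483 in the library labelled NCM460, 0.248 in DLD1 under hypoxia, 0.45 in untreated DLD1 and 6.88 in HIEC6. The part of other cells or of the run in the LOX values was not tested. LOXL2 had 50.5 CPM in the library labelled NCM460, 41.9 CPM in untreated HCT116 and 525 CPM in HCT116 under hypoxia.

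**Figure D4:**
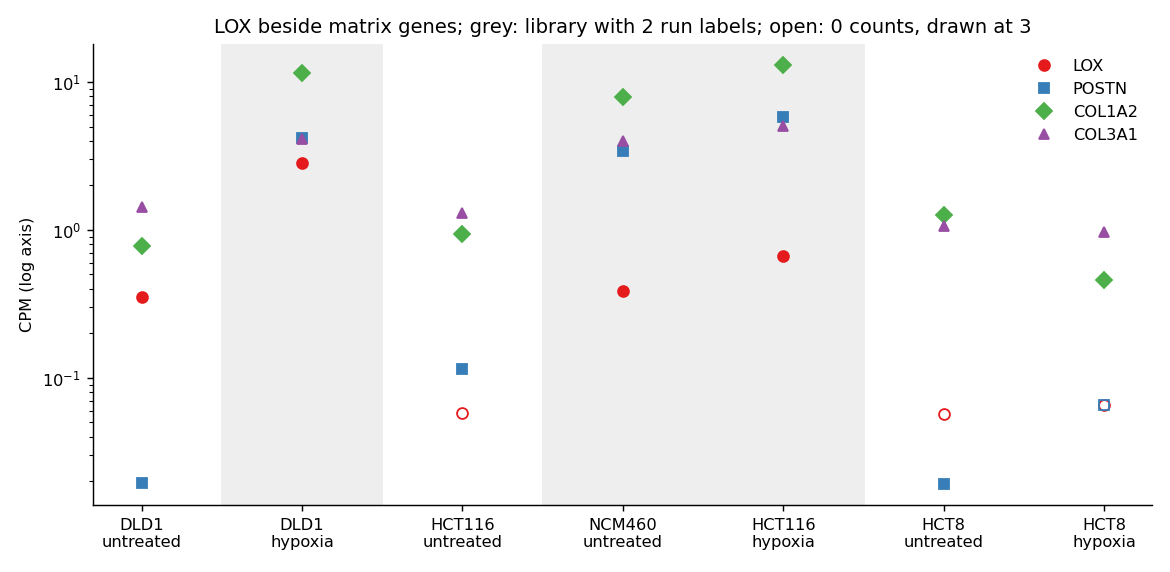
Levels in CPM on a log axis of LOX, POSTN, COL1A2 and COL3A1 in the 7 libraries other than HIEC6; grey bands mark libraries with a second run label, and open symbols mark 0 counts, drawn at 3 counts. POSTN, COL1A2 and COL3A1 are higher in the grey libraries than in any other library shown, whereas the LOX level of NCM460 (0.386 CPM) overlaps that of untreated DLD1 (0.351 CPM).

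The promoters of LOX and LOXL4 are shown because both genes were at least 5-fold higher under hypoxia in DLD1 while their sequences differ in the short motif of the hypoxia response element. The windows are the 250 bases before the RefSeq gene start in GRCh38.p14, chr5:122078260-122078509 on the minus strand for LOX and chr10:98268195-98268444 on the minus strand for LOXL4, written 5′ to 3′ along the gene. Capitals mark ACGTG on either strand, the core bound by hypoxia-inducible factors, and GCGTG was searched too.
LOX: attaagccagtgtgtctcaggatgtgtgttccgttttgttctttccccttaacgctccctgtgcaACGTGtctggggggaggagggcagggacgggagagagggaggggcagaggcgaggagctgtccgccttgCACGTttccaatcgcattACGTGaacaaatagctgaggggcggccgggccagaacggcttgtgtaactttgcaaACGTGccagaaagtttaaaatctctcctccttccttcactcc
LOXL4: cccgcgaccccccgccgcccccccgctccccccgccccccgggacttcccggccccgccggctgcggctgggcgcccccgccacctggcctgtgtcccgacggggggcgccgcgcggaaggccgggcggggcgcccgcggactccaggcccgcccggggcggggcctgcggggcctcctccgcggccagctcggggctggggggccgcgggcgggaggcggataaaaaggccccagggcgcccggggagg
The LOX window held ACGTG 4 times, beginning 185, 98 and 42 bases before the start on the gene's strand, and once on the opposite strand in the stretch that begins 116 bases before the start. It held no GCGTG, and the windows of LOXL1, LOXL3 and LOXL4 held neither motif. LOXL2 had no window in this set and was not searched. Of 27305 promoter windows of this length, 18.6% held ACGTG at least once, 0.71% at least 4 times, and 31.9% held GCGTG. A match is a description of letters and not a binding site.

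LOXL4 went from 12 to 74 counts in DLD1 (0.234 to 1.29 CPM), from 276 to 292 in HCT116 (5.28 to 5.27 CPM) and from 1372 to 1598 in HCT8 (26.1 to 35.1 CPM). HCT8 was the highest line in either condition and DLD1 the lowest. The ratio was 5.50 in DLD1 (2.97 to 11.1) and 1.35 in HCT8 (1.25 to 1.45), and in HCT116 it was 0.998 (0.843 to 1.18) by library totals. Over all genes the log2 ratio in the HCT116 pair had a median of -0.35 by library totals, and TMM scaling turned the LOXL4 value there to 0.36 on the log2 scale. The log2 fold change was 0.46 (SE 1.59, adjusted p = 1 from edgeR) without the block and 0.90 (SE 0.40, adjusted p = 0.277 from edgeR) with it.

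LOXL3 went from 541 to 464 counts in DLD1 (10.6 to 8.09 CPM), from 115 to 61 in HCT116 (2.2 to 1.1 CPM) and from 322 to 92 in HCT8 (6.12 to 2.02 CPM). It was the only member lower in all 3 lines, by library totals and with TMM scaling alike. The ratio was 0.766 in DLD1 (0.675 to 0.868), 0.50 in HCT116 (0.361 to 0.688) and 0.330 in HCT8 (0.259 to 0.418). The log2 fold change was -0.67 (SE 0.91, adjusted p = 1 from edgeR) without the block and -0.85 (SE 0.36, unadjusted p = 0.0445, adjusted p = 0.257 from edgeR) with it. Without the block and with unmatched lines, it was -0.01 with untreated DLD1 left out and -1.89 with DLD1 under hypoxia left out. HTRA2, whose exons overlap it on the opposite strand, had 1978 and 2054 counts untreated and under hypoxia in DLD1, 1609 and 859 in HCT116, and 1685 and 1105 in HCT8, and its part in the LOXL3 counts was not tested.

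LOXL1 went from 53 to 82 counts in DLD1 (1.03 to 1.43 CPM), from 686 to 495 in HCT116 (13.1 to 8.94 CPM) and from 139 to 133 in HCT8 (2.64 to 2.92 CPM). By library totals it was lower under hypoxia in HCT116, with a ratio of 0.681 (0.605 to 0.765). The median log2 ratio over all genes of that pair was -0.35, and TMM scaling gave LOXL1 there -0.20 on the log2 scale. Its intervals included equality in DLD1 (0.966 to 1.99) and HCT8 (0.866 to 1.41). Its log2 fold change was -0.09 (SE 1.19, adjusted p = 1 from edgeR) without the block and 0.14 (SE 0.31, adjusted p = 0.852 from edgeR) with it, so the sign depended on the block. LOXL1-AS1 had 35 and 35 counts untreated and under hypoxia in DLD1, 583 and 348 in HCT116, and 26 and 63 in HCT8, and without a strand setting reads in the shared exon cannot be assigned.

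In single pairs, LOX, LOXL2 and LOXL4 were at least 2-fold higher in DLD1, where 11.2% of genes were, and LOX and LOXL2 in HCT116, where 12.4% were. In HCT8 no member was at least 2-fold higher, with 14.4% of genes, and LOXL3 was the only member at least 2-fold lower, with 9.81%. No member was at least 2-fold lower in DLD1 (5.90% of genes). In HCT116, where 25.7% of genes were, LOXL3 stood at the threshold (log2 ratio -0.999) and just missed it.

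Without the block edgeR called 0 of 21045 genes (0%), with 606 at an unadjusted p under 0.05, and DESeq2 called 55. The line pairs the libraries, and with it as a block edgeR called 200 genes (0.950%), 156 higher and 44 lower, none of them a member. At an unadjusted p under 0.05 from edgeR with the block stood LOX, LOXL2 and LOXL3, that is 3 of 5 members, against 18.5% of all genes tested. LOX was at 0 in both HCT8 libraries. With DESeq2 and the block, LOXL4 was under 0.05 (unadjusted p = 0.0253) and LOX was not (unadjusted p = 0.319).

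Of the lysine and proline hydroxylases, which modify collagen upstream of the lysyl oxidases, PLOD2, P4HA1 and P4HA2 passed the test with the block. Without the block none of them was called. PLOD2, which hydroxylates telopeptide lysines that lysyl oxidases then use, rose in all 3 lines, from 4027 to 19071 counts in DLD1, from 1626 to 12408 in HCT116 and from 2996 to 24994 in HCT8 (log2 fold change 2.87, SE 0.27, adjusted p = 0.00564 from edgeR). It was 1 of 3 lysine hydroxylases called, and PLOD1 (log2 fold change 0.99, adjusted p = 0.104 from edgeR) and PLOD3 (-0.49, adjusted p = 0.199) were not. Of 9 genes of proline hydroxylation, P4HA1 (log2 fold change 2.63, SE 0.42, adjusted p = 0.0349 from edgeR) and P4HA2 (1.27, SE 0.22, adjusted p = 0.0472) rose, and P4HA3 (-0.74, adjusted p = 0.645) was not called. The median log2 fold change was 0.99 over the lysine hydroxylases, 0.23 over the proline hydroxylases and 0.03 over all genes.

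None of the 4 chaperones and glycosyltransferases of collagen was called, and all 4 had lower values under hypoxia (median log2 fold change -0.57). COLGALT2, a collagen galactosyltransferase, had a log2 fold change of -1.73 (adjusted p = 0.102 from edgeR), and SERPINH1, the collagen chaperone, one of -0.53 (adjusted p = 0.16). None of the 7 tested substrates was called, and all 7 had higher values with the block (median 0.92), whereas 5 were higher and 2 lower without it, and COL4A1 and COL4A2 were lower in CPM in DLD1 and HCT8. COL1A2, COL3A1 and COL5A1 were lower in HCT8 too. The mesenchyme markers beside them had a median of 1.58, with 9 of 9 tested higher and none called. The substrates included COL1A2 at 2.63 (adjusted p = 0.264 from edgeR) and COL1A1 at 1.53 (adjusted p = 0.0617). Of 9 tested matrix partners, FN1 (fibronectin, log2 fold change 2.80, adjusted p = 0.0295 from edgeR) and POSTN (6.04, adjusted p = 0.0449) passed, and POSTN did so with 1 and 0 counts in the HCT8 pair. No gene was called among 7 for propeptide processing, 4 for copper supply or 5 epithelial-mesenchymal transition factors, where PCOLCE (1.49, adjusted p = 0.101), ATP7A (0.75, adjusted p = 0.118) and ZEB1 (0.32, adjusted p = 0.669) had the largest values from edgeR among genes with a mean log2 CPM above 1. Of 10 reference genes of the hypoxia response, 6 were called and all 10 were higher (median 3.46), and the called genes of largest fold were CA9 (log2 fold change 7.0, adjusted p = 0.00447 from edgeR) and NDRG1 (4.37, adjusted p = 0.00462).

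**Figure D5:**
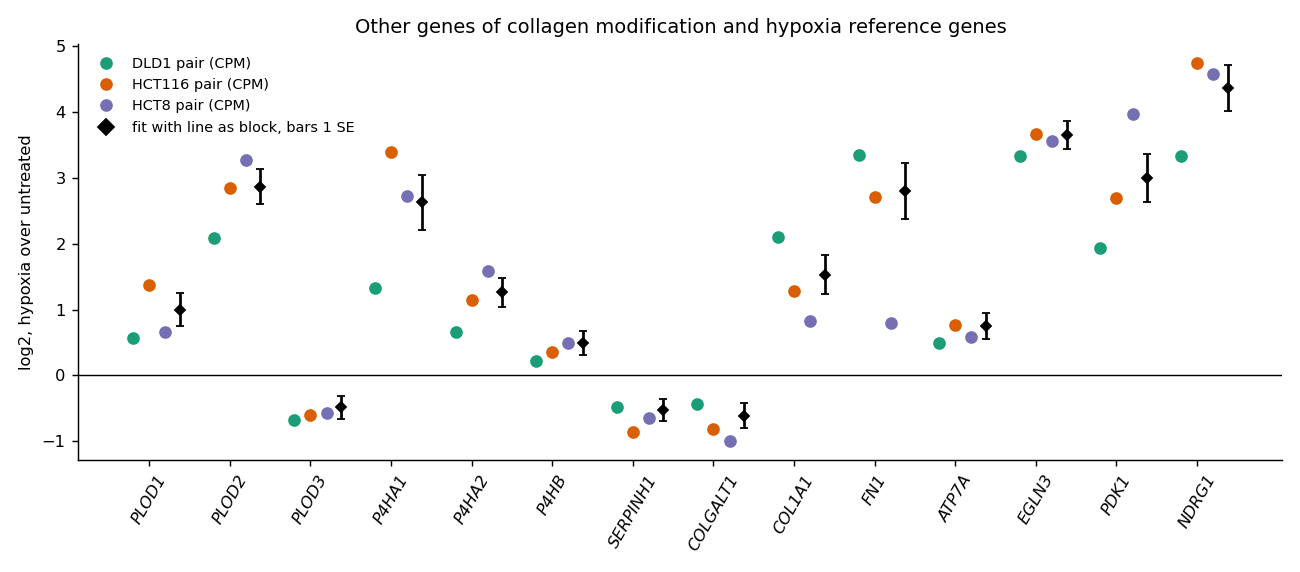
Log2 ratios of hypoxia to untreated for 14 genes of collagen modification and the hypoxia response, with 1 point per line in CPM and a diamond for the blocked fit (bars 1 SE). PLOD2, P4HA1 and P4HA2 lie above 0 in all 3 lines, and PLOD3, SERPINH1 and COLGALT1 below 0 in all 3.

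Over the 8 libraries the members followed different patterns, described here by Pearson's r of log2(CPM + 1) between libraries that include pairs of the same line. LOXL1 and LOXL2 were the most alike pair (r = 0.878), and LOXL3 ran opposite to LOXL1 (-0.74) and LOXL2 (-0.72). The gene most like LOXL2 was BNIP3 (r = 0.995), a mitophagy receptor induced by hypoxia, with 192 CPM in HCT116 under hypoxia, 39.7 in HIEC6 and 18.5 in untreated HCT116, and at most 0.0871 CPM in any DLD1 or HCT8 library. CD68 (0.987) and LIMS2 (0.986) followed. For LOXL4 they were PPARA (0.988), a nuclear receptor of lipid metabolism, F10 (0.975), which encodes coagulation factor X, and LOC100130238 (0.969). For LOXL1 they were ST6GALNAC4, TSPAN3 and ZNF548 (each r = 0.991), for LOXL3 DICER1 (0.987), FUCA2 (0.982) and ZNF451 (0.975), and for LOX TRNT (0.893), MUC1 (0.891) and IRAK2 (0.888).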

How the data were processed

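Per the labels, 8 libraries of cell lines were grouped by line and treatment (labelled normal, n = 2; CRC, n = 3; CRC under hypoxia, n = 3). The authors removed ribosomal RNA, sequenced on an Illumina instrument, aligned clean reads and deposited raw counts per gene, without normalization. The methods name GRCh37.p13, whereas the submitters' processing notes name GRCh38 and HISAT2 2.0.4, and the counter, strand setting and treatment of reads with several matches are not given in the sources used here, so reads of overlapping genes are uncertain.

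CPM was the count over the column total. The tests used edgeR 4.0.16 (quasi-likelihood, TMM, Benjamini-Hochberg over all genes tested, threshold 0.05) in R 4.3.3. A gene entered a fit if 2 or more of its libraries had 10 or more counts. The tests were tested on simulated data. The SE was the log2 fold change over the root of F. DESeq2 1.42.0 and limma-trend (limma 3.58.1), other filters and scalings, the replicate block and left-out libraries were alternatives. Same-line libraries deviated together from their group means (r = 0.873, 0.87 and 0.865), so the line pairs the libraries in the hypoxia comparison. Different lines stood at -0.62 to -0.0979, but centring on the group mean pushes these values below 0, so their sign is no evidence of pairing. Ratios of 1 library to 1 carry conditional binomial intervals, from SciPy 1.17.1. Positions and lengths came from GENCODE release 44 lifted to GRCh37, and promoters from RefSeq (4 members matched, all but LOXL2).

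The members and lists were chosen with earlier results of these data known. Named genes were the 5 members, their antisense genes, and at most 3 genes per list and comparison with the largest changes, called genes first. The PLOD and P4HA genes could be named in full, and the genes most alike were the 3 with the highest r per member. The matrix genes set beside LOX (POSTN, COL1A2, COL3A1), FBN2, ELN and HTRA2 were picked from the lists or the annotation after their values were seen.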

Additional observations from a re-analysis of the deposited data

Results flagged for a closer look

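The hypoxia and untreated pairs differed between lines in sign for LOXL1 and in size for LOXL4, and these differences were not tested. The log2 ratio of LOXL1 was 0.47 in DLD1, 0.15 in HCT8 and -0.56 in HCT116. The counting intervals in DLD1 and HCT8 included 0, and TMM scaling gave -0.20 in HCT116. The log2 ratio of LOXL4 was 2.46 in DLD1, 0.43 in HCT8 and -0.00321 in HCT116, where the interval included 0 and TMM scaling gave 0.36.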

How the results depend on the processing

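No member was called under any alternative, with each library left out included. LOX fell under the filter on low counts, and was not tested, with at least 10 counts required in every library and without DLD1 in the blocked and the HIEC6 fits. DESeq2 gave no p for LOXL2 without the block and no adjusted p for LOX with it. The count of genes called for hypoxia was 0 and moved to 55 with DESeq2, and with the replicate block to 200 (1666 with DESeq2, 172 with library totals alone; with each line left out in turn, 292 without DLD1, 738 without HCT116 and 6 without HCT8). The count for HIEC6 was 0 and moved to 4206 with DESeq2, 42 with no low-count filter, 85 with limma-trend, 146 with all 8 libraries in 1 fit and 474 with the hypoxia libraries added to the CRC group. The cause of these differences was not tested.

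The log2 fold change of LOXL1 under hypoxia reversed to 0.15 with limma-trend, and with the replicate block to 0.14 (0.16 with DESeq2, 0.0027 with library totals alone, 0.13 to 0.30 where it reversed with a line left out). With single libraries left out without the block, the hypoxia value ranged from -1.48 to 1.66 for LOXL1 (0.36 without DLD1 and 0.23 without HCT8 under hypoxia), from -1.23 to 2.24 for LOXL4 (-0.11 without untreated DLD1), from -3.81 to 8.79 for LOXL2, from 1.90 to 9.03 for LOX and from -1.89 to -0.01 for LOXL3. In each of these fits the lines no longer matched between the groups, so the values mix line and treatment. With each CRC line left out, the LOXL3 value for HIEC6 ranged from -0.93 to 0.11, the latter without DLD1. The replicate block changed no other direction and no call of a member. Depth limits LOX most, with 0 counts in 3 of the 8 libraries.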
